A study of Mus musculus with 6 samples.

Results

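Cholecystokinin, adrenomedullin, their receptors and 2 other secreted factors were followed in MIN6 cells, an insulin-secreting line established from a mouse insulinoma. The genes were chosen by symbol as secreted peptides and receptors outside the classical islet hormones, and all 10 (Cck, Cckbr, Cckar, Adm, Adm2, Ramp1, Ramp2, Calcrl, Nucb2 and Stc2) were found among the 22298 genes of the expression table. RNA was sequenced from 3 controls (control 1 to 3) and from 3 samples kept in epinephrine (chronic epinephrine 1 to 3), all of this line. In the protocol the hormone was given at 100 nM over 3 days and was then withheld over 2 days, and the day on which RNA was taken is not given in the sources used here. The labels number the samples but name no culture or passage, so the tests measure only the spread between these samples. Levels are given as normalised CPM (counts scaled to library size by TMM) and, for comparison between genes, as FPKM (fragments scaled to transcript length and library size).

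Cholecystokinin is made by endocrine cells of the gut and by neurons, and β-cells also produce it under metabolic load. Its 2 receptors couple mainly to calcium release, CCKAR preferring the sulfated peptide and CCKBR binding gastrin as well. Adrenomedullin and adrenomedullin 2 belong to the calcitonin peptide family and act through the calcitonin receptor-like receptor (Calcrl), which reaches the cell surface with a RAMP partner that sets its ligand preference. Nucb2 encodes the precursor of nesfatin, a peptide that reduces food intake, and Stc2 encodes a secreted glycoprotein known to be induced by endoplasmic reticulum stress in cultured cells.

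The genes were chosen with the control against epinephrine contrast already known. Their differences and FDR values (Benjamini-Hochberg adjusted over all genes tested by edgeR) therefore describe them and are no independent evidence. Of the 10 genes, 9 passed the filter on low counts, each with at least 15 counts in every sample, and Calcrl did not. At an FDR under 0.05, 7 of the 9 rose after chronic epinephrine (Adm, Adm2, Nucb2, Cckbr, Stc2, Cck and Ramp2), where 2.02% of all 12747 genes tested rose. Of the 9, 0 fell at that FDR, where 0.612% of all genes tested fell, and Ramp1 was the only one with a lower mean after epinephrine. Of the 9, 6 rose at least 2-fold at that FDR, where 0.635% of all genes tested did, and Ramp2 was the exception among the 7. The median log2 fold change of the 9 was 1.07, and that of all genes tested was 0.00. Cells of a kind that became more frequent and more RNA per cell cannot be told apart in such bulk samples.

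The libraries held 15017065 to 18127171 expected counts. Control 1 stood apart on the first principal component, and controls 2 and 3 carried hepatocyte transcripts. The 8 hepatocyte markers summed to 67.2 and 173 CPM in controls 2 and 3, against 1.62 in control 1 and 2.13 to 2.58 after epinephrine. All 12 β-cell markers were tested, with sums of 43830 to 63120 CPM in control and 55950 to 58140 CPM after epinephrine. Of these, Ins1 and Slc2a2 fell, by 0.50 and 0.76 on the log2 scale (FDR 0.0152 and 0.00434). The 10 endothelial markers summed to 17.4 to 21.8 CPM in control and 16.2 to 17.8 CPM after epinephrine, and 4 were tested with 0 at an FDR under 0.05. Among them Emcn was at 0 in all samples and Pecam1, Cdh5 and Kdr had at most 7, 3 and 3 counts in any sample. The 8 leukocyte markers summed to 1.09 to 3.24 CPM and to 3.14 to 4.33 CPM, and Cd68 rose among them. The 8 alpha, delta and PP cell markers summed to 177 to 214 CPM and to 379 to 412 CPM, and Gcg rose among them. The 8 fibroblast markers summed to 1.77 to 23.2 CPM and to 1.92 to 19.8 CPM. The 7 markers of enteroendocrine I cells, which include Cck itself, summed to 907 to 1390 CPM and to 2239 to 2528 CPM. Of the 7, 2 were tested and Cck rose, while Neurog3 was at 0 in all samples. The part of other cell types in the values below was not tested, apart from fits without single libraries.

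Cck (ENSMUSG00000032532) encodes preprocholecystokinin and lies on the minus strand of chromosome 9 of GRCm38, from 121489824 to 121495694. Its main coding transcript has 4 exons and 402 coding bases. In control 1, 2 and 3 it was at 889.8, 1116 and 1367 CPM, and in chronic epinephrine 1, 2 and 3 at 2212, 2227 and 2501 CPM. The groups did not overlap, and the lowest epinephrine sample was 1.62 times the highest control. Controls spread more (CV 21.2%) than epinephrine samples (CV 7.03%), with control 1 lowest and control 3 highest. The mean rose 2.06-fold, from 1124 ± 239 to 2314 ± 163 CPM (SD, n = 3), a log2 difference of 1.04 (SE 0.15) at an FDR of 0.0107. Per transcript length, Cck had a mean of 2481 FPKM over the 6 samples and was the 19th most abundant gene of the table. Without control 1 the log2 fold change was 0.90, and without controls 2 and 3, the libraries with hepatocyte transcripts, it was 1.37. The FDR was above 0.05 without control 2 (0.0594) and without chronic epinephrine 1, 2 or 3 (0.0778, 0.0755 and 0.0786).

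The sequences upstream of Cck and of its receptor Cckbr are shown because both genes rose and both carry an E-box of the letters CACGTG there. They are the RefSeq windows on GRCm38.p6 from 250 to 31 bases before the start site, chr9:121495725-121495944 on the minus strand for Cck and chr7:105425481-105425700 on the plus strand for Cckbr. Capitals mark CACGTG in both and, in Cck, CGTCA, which is TGACG, the core of the cAMP response element, on the opposite strand.
Cck: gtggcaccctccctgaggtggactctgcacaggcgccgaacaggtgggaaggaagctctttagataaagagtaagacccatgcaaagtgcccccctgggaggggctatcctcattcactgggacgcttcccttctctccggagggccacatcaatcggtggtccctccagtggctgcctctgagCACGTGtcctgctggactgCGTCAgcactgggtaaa
Cckbr: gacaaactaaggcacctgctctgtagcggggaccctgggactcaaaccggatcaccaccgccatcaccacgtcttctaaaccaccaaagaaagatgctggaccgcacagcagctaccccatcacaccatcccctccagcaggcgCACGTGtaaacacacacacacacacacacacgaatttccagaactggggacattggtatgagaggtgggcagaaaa

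In Cck the E-box covers bases -66 to -61 and CGTCA bases -47 to -43. In Cckbr the E-box covers bases -106 to -101. Windows of 300 bases (250 before and 50 after the start) were available for 8 of the 10 genes and were searched on both strands for 8 motifs chosen with the earlier results known. CACGTG was found in 2 of the 8 windows and in 7.15% of 32851 promoter windows of the genome, and TGACG in 2 of the 8 (Cck and Ramp1) and in 20.8%. The full cAMP response element TGACGTCA, of which TGACG is a part, was in 0 of the 8 and in 1.79% of all windows. TGANTCA (AP-1), TGATGCAA (the composite of C/EBP and ATF factors), TATAAA and the endoplasmic reticulum stress element were also in 0 of the 8, and in 7.81%, 0.895%, 13.6% and 0.119% of all windows. A match in these letters is a description and does not show that a factor binds.

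Cckbr (ENSMUSG00000030898, plus strand of chromosome 7, 105425731 to 105470898) encodes the cholecystokinin B receptor, which also binds gastrin. Its levels were 1.88, 1.66 and 1.75 CPM in control 1, 2 and 3 and 4.51, 4.88 and 5.36 CPM in chronic epinephrine 1, 2 and 3. The controls were tightly grouped and every epinephrine sample was at least 2.40 times the highest control. It rose 2.79-fold, from 1.76 ± 0.110 to 4.91 ± 0.425 CPM (SD, n = 3), with a log2 difference of 1.48 (SE 0.17) at an FDR of 0.00543. The depth behind these values was 28 to 87 counts per sample. The FDR was 0.0585 without chronic epinephrine 2 and under 0.05 when any other single sample was left out.

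Cckar (ENSMUSG00000029193, minus strand of chromosome 5, 53697776 to 53707705) encodes the cholecystokinin A receptor, which is best known from pancreatic acinar cells and the gallbladder. It was at 2.78, 2.34 and 3.44 CPM in the controls and at 4.03, 5.16 and 6.81 CPM after epinephrine. The groups did not overlap, but the lowest epinephrine sample was only 1.17 times the highest control, and the epinephrine samples spread widely (CV 26.2%). The log2 fold change had a value of 0.90 (SE 0.24) and an FDR of 0.0991, so Cckar did not pass. Without control 1 it passed, with a log2 fold change of 0.88 (FDR 0.00698), in a fit where 21.6% of all genes tested passed, and it did not when any other single sample was left out. In FPKM the ratio of Cckbr to Cckar was 0.765, 0.812 and 0.586 in the controls and 1.27, 1.08 and 0.896 after epinephrine. The lowest ratio after epinephrine was close to the highest control ratio, at 28 to 87 counts of Cckbr and 41 to 103 of Cckar. How often other pairs of genes separate in this way was not tested.

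**Figure D1:**
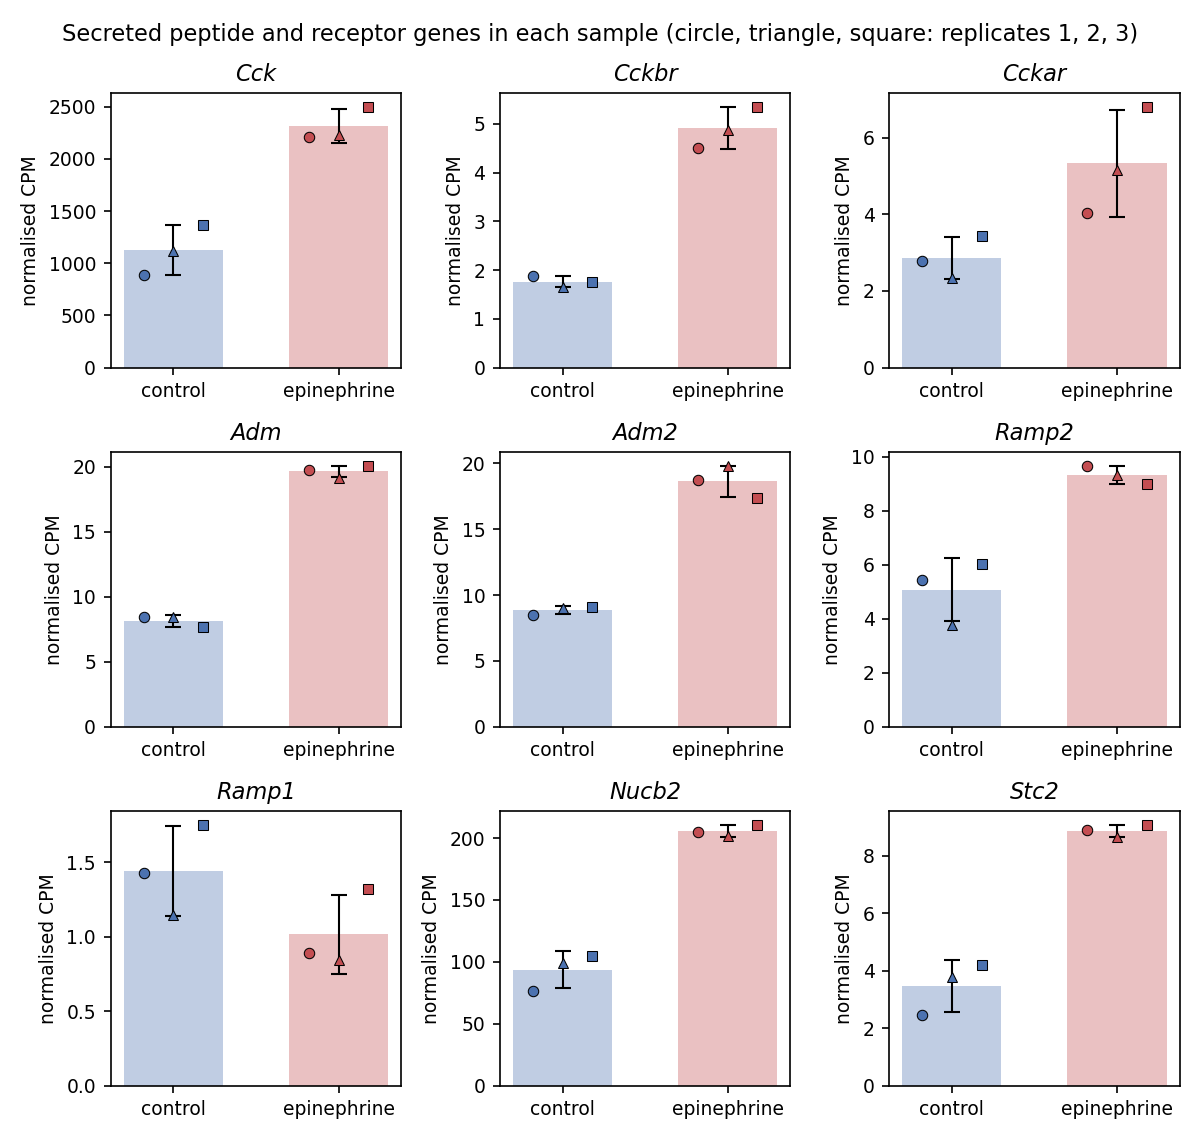
Normalised CPM (linear axis from 0, a scale of its own for each gene) of 9 genes in 3 control and 3 chronic epinephrine samples. Bars are means, error bars SD, and each point is 1 sample. Every epinephrine sample lies above every control sample for 8 genes, and for Ramp1 the groups overlap.

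Adm (ENSMUSG00000030790, plus strand of chromosome 7, 110627661 to 110629820) encodes adrenomedullin, a vasodilator peptide. It was at 8.42, 8.40 and 7.63 CPM in control 1, 2 and 3 and at 19.8, 19.2 and 20.0 CPM in chronic epinephrine 1, 2 and 3. Both groups were tight (CV 5.49% and 2.26%), and the lowest epinephrine sample was 2.28 times the highest control. It rose 2.41-fold, from 8.15 ± 0.447 to 19.6 ± 0.443 CPM (SD, n = 3), a log2 difference of 1.27 (SE 0.10) at an FDR of 0.00123. By p-value Adm was 12th among all genes tested, ahead of the other 8 genes. The FDR stayed under 0.05 when any single sample was left out, with log2 fold changes of 1.22 to 1.29.

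The upstream window of Adm (chr7:110627407-110627626, plus strand) is shown beside that of Stc2 (chr11:31370092-31370311, minus strand), since both genes rose and each carries the core of the hypoxia response element at 2 places upstream of the start. Capitals mark GCGTG or, on the opposite strand, CACGC, in RefSeq sequence of GRCm38.p6 from 250 to 31 bases before the start site.
Adm: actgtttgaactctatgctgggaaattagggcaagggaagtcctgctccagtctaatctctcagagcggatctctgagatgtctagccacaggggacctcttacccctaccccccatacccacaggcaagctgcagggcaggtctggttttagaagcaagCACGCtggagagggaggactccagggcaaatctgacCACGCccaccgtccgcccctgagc
Stc2: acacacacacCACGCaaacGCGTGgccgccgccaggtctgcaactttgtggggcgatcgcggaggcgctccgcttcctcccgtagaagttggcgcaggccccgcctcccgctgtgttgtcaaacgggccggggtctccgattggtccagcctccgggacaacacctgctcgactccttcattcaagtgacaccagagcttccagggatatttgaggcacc

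The matches lie at -90 to -86 and -54 to -50 in Adm, and at -240 to -236 and -231 to -227 in Stc2. The window of Nucb2 also held 2 matches, at -165 to -161 and at 3 to 7, and that of Calcrl held 1. The letters GCGTG were thus in 4 of 8 windows and in 32.4% of all promoter windows. Other forms of the core were not searched as such, so these counts cover GCGTG only. The window of Stc2 held 28 CpG sites and that of Nucb2 20, where the median of all windows was 7, while the windows of Adm and Adm2 held 9 and 7.

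Adm2 (ENSMUSG00000054136, plus strand of chromosome 15, 89322720 to 89324731) encodes adrenomedullin 2, also called intermedin. It was at 8.48, 9.03 and 9.07 CPM in the controls and at 18.7, 19.8 and 17.4 CPM after epinephrine. The groups lay far apart relative to their spread, with the lowest epinephrine sample at 1.92 times the highest control. It rose 2.10-fold, from 8.86 ± 0.331 to 18.6 ± 1.2 CPM (SD, n = 3), a log2 difference of 1.07 (SE 0.11) at an FDR of 0.00248. It too stayed under an FDR of 0.05 when any single sample was left out, with log2 fold changes of 1.03 to 1.12. In FPKM both adrenomedullins were at a like level, with a ratio of Adm to Adm2 of 0.786 to 0.927 in the controls and 0.905 to 1.08 after epinephrine.

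Calcrl (ENSMUSG00000059588, minus strand of chromosome 2, 84330626 to 84425411), the receptor through which both peptides act, was at or under the limit of detection. It had 2, 1 and 1 counts in control 1, 2 and 3 and 0 in each epinephrine sample, where a count of 0 allows up to 3 counts, or 0.165 to 0.197 CPM. No fold change is given, since both groups lie under that limit, which covers counting error only. The related calcitonin receptor Calcr had at most 2 counts in any sample.

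The RAMP partners were low. Ramp2 (ENSMUSG00000001240, plus strand of chromosome 11, 101246028 to 101259546), which with Calcrl forms an adrenomedullin receptor, was at 5.44, 3.77 and 6.01 CPM in control and at 9.67, 9.30 and 8.99 CPM after epinephrine. The groups did not overlap, and control 2 was the lowest sample. It rose 1.84-fold, from 5.07 ± 1.16 to 9.32 ± 0.338 CPM (SD, n = 3), a log2 difference of 0.88 (SE 0.18) at an FDR of 0.0396. This call was the least stable of the 7. The FDR was 0.0898 without control 2, 0.0517 without control 3, and 0.216, 0.194 and 0.165 without chronic epinephrine 1, 2 and 3. It was 0.0824 with replicate number as a block and 0.180 and 0.186 with limma on FPKM. Exons of Ramp2 overlap those of Vps25 on the same strand, and 30.7% of its 50-base windows occur in Vps25 transcripts, so its counts may hold reads of that gene.

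Ramp1 (ENSMUSG00000034353, plus strand of chromosome 1, 91179822 to 91225196) forms the receptor for calcitonin gene-related peptide with Calcrl. It was at 1.42, 1.14 and 1.75 CPM in control and at 0.890, 0.841 and 1.32 CPM after epinephrine, from 15 to 28 counts per sample. The groups overlapped in CPM, as chronic epinephrine 3 lay above control 2, although in the authors' FPKM values they did not (0.59 to 0.93 in control and 0.43 to 0.56 after epinephrine). The log2 fold change had a value of -0.51 (SE 0.30) and an FDR of 0.434. A difference was not detectable at this depth and spread between samples (CV 21.2% in control and 26.1% after epinephrine). The ratio of Ramp2 to Ramp1 in FPKM was 5.54 to 9.44 in the controls and 14.0 to 25.7 after epinephrine. It rests on the low counts of Ramp1 and on FPKM values of Ramp2 that did not follow its CPM. In chronic epinephrine 1, 2 and 3 Ramp2 was at 8.40, 11.05 and 7.84 FPKM but at 9.67, 9.30 and 8.99 CPM.

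Nucb2 (ENSMUSG00000030659, plus strand of chromosome 7, 116504369 to 116540584) encodes nucleobindin 2, a calcium-binding protein from which nesfatin is cut. It was the second most abundant of the genes, at 76.7, 98.8 and 105 CPM in control 1, 2 and 3 and at 205, 201 and 211 CPM in chronic epinephrine 1, 2 and 3. The epinephrine samples were nearly equal (CV 2.37%), and control 1 was the lowest of the controls. It rose 2.20-fold, from 93.5 ± 14.9 to 205.7 ± 4.87 CPM (SD, n = 3), a log2 difference of 1.14 (SE 0.12) at an FDR of 0.00330. The FDR stayed under 0.05 when any single sample was left out, with log2 fold changes of 1.01, without control 1, to 1.23. Without controls 2 and 3 the log2 fold change was 1.41.

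Stc2 (ENSMUSG00000020303, minus strand of chromosome 11, 31357307 to 31370074) encodes stanniocalcin 2. It was at 2.46, 3.77 and 4.19 CPM in control 1, 2 and 3 and at 8.90, 8.63 and 9.06 CPM in chronic epinephrine 1, 2 and 3. Every epinephrine sample was at least 2.06 times the highest control, and control 1 was the lowest of the 6 samples. It rose 2.55-fold, from 3.47 ± 0.904 to 8.86 ± 0.216 CPM (SD, n = 3), a log2 difference of 1.34 (SE 0.19) at an FDR of 0.00969. The log2 fold change was 1.15 without control 1 and 1.83 without controls 2 and 3. The FDR was 0.0813, 0.0755 and 0.0683 without chronic epinephrine 1, 2 and 3.

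**Figure D2:**
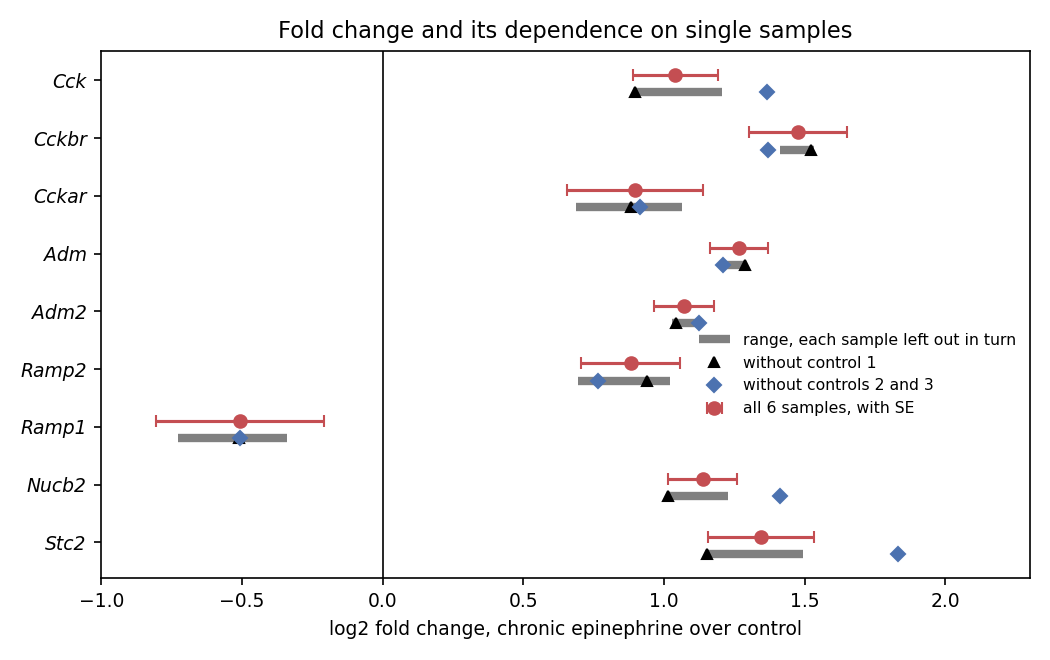
Log2 fold change of chronic epinephrine over control for the 9 tested genes, with SE from edgeR (red), the range when each of the 6 samples is left out in turn (grey bar), and the values without control 1 (triangle) and without controls 2 and 3 (diamond). Cck, Nucb2 and Stc2 move with the choice of controls, from 0.90 to 1.37, 1.01 to 1.41 and 1.15 to 1.83, while Adm and Adm2 stay near 1.27 and 1.07.

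The genes differed in how the controls varied. On the log2 scale relative to the control mean, control 1 lay at -0.34 for Cck, -0.29 for Nucb2 and -0.50 for Stc2, and control 3 lay at 0.28, 0.17 and 0.27. For Adm, Adm2 and Cckbr all 3 controls lay between -0.09 and 0.09. The epinephrine samples lay between 0.97 and 1.60 for these 6 genes. For 8 of the 9 genes the groups did not overlap, with epinephrine higher each time, where 14.3% of all genes tested were higher without overlap and 27.3% did not overlap in either direction.

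In FPKM the levels of the genes spanned more than 3 orders of magnitude. Cck was followed by Nucb2 (88.2 FPKM on average over the 6 samples), Adm2 (10.5), Adm (9.96), Ramp2 (7.21), Stc2 (1.56), Cckar (1.39), Cckbr (1.29) and Ramp1 (0.613). Cck stood clear of Nucb2 in every sample, with a ratio of 26.4 to 31.9, and Nucb2 stood clear of the adrenomedullins. Adm2 and Adm did not differ beyond their spread after epinephrine (14.2 ± 0.869 and 14.0 ± 0.378 FPKM, SD, n = 3), nor did Cckar and Cckbr (1.80 ± 0.469 and 1.89 ± 0.161 FPKM). In control, Stc2 and Cckar (0.887 ± 0.219 and 0.980 ± 0.180 FPKM), and Cckbr and Ramp1 (0.693 ± 0.0513 and 0.717 ± 0.186 FPKM), also lay within each other's spread, as did Adm and Ramp2 (5.92 ± 0.399 and 5.32 ± 1.82 FPKM). Stc2 lay within the spread of Cckar after epinephrine as well, at 2.23 ± 0.0625 FPKM.

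**Figure D3:**
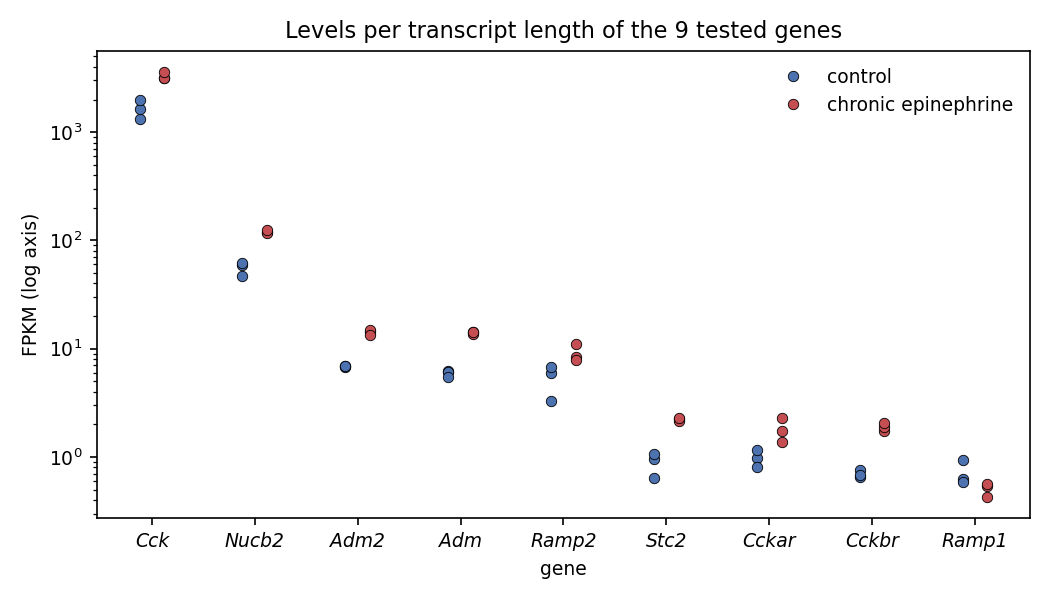
FPKM (log axis) of the 9 tested genes in each of the 6 samples, ordered by mean level, with control in blue and chronic epinephrine in red. Cck averages 2481 FPKM and Ramp1, the lowest, 0.613, and Calcrl, at 0.03 FPKM or less, is not drawn.

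The deposited annotation groups the genes only in part. Adm, Calcrl, Cck, Cckar and Cckbr carry the KEGG pathway neuroactive ligand-receptor interaction, which holds 375 genes of the table and 99 of those tested. Adm, Adm2, Cck and Stc2 are annotated with hormone activity, a term of 122 genes. Receptor internalization is shared by Adm, Calcrl, Ramp1 and Ramp2, of 37 genes.

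The closest relatives of these genes were gastrin (Gast), the other calcitonin family parts (Calca, Calcb, Calcr, Ramp3 and Crcp), Nucb1 and Stc1. Of these 8, 4 were tested and 1 rose, where 2.63% of all genes tested changed in either direction. The median log2 fold change of the 4 was 0.48. Stc1, the paralog of Stc2, was at 62.7, 66.5 and 65.8 CPM in control and at 90.8, 100.3 and 92.2 CPM after epinephrine, and these groups did not overlap. Its log2 fold change had a value of 0.54 (SE 0.08) and an FDR of 0.0129, and the FDR was above 0.05, up to 0.103, without control 2 and without any 1 epinephrine sample. Nucb1, the paralog of Nucb2 and the most abundant of the relatives, had a log2 difference of 0.43 (SE 0.11) at an FDR of 0.0957. Crcp, which couples the calcitonin receptor-like receptor to its signal, had one of 0.36 (SE 0.16, FDR 0.317). Calca, the gene of calcitonin and its gene-related peptide, had 1.23 (SE 0.62, FDR 0.355) from 1 to 15 counts per sample. Gast and Ramp3 had at most 8 and 9 counts in any sample, and Calcb had 0 in all.

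Other neuropeptides and peptide hormones outside the classical islet hormones were mostly near or at 0. Of 56 such genes in the table, 16 had no count in any sample, 9 were tested, 2 rose and 2 fell (2.02% and 0.612% of all genes tested), and their median log2 fold change was -0.05. Pdyn, the precursor of dynorphin opioid peptides, was at 1246, 1111 and 1276 CPM in control and at 2187, 2052 and 2273 CPM after epinephrine. The groups did not overlap, and the log2 difference of 0.84 (SE 0.09) at an FDR of 0.00384 kept an FDR under 0.05 with any single sample left out. Cartpt, the precursor of the CART peptide that reduces food intake, rose from 7.63 ± 1.46 to 13.8 ± 1.03 CPM (SD, n = 3), with a log2 difference of 0.86 (SE 0.15) at an FDR of 0.0248. Npy, the most abundant of this list and a peptide that inhibits insulin release, fell from 2379 ± 130 to 1749 ± 57.5 CPM, with a log2 difference of -0.44 (SE 0.08) at an FDR of 0.0333. Ucn3, a peptide of mature β-cells, fell from 52.7 ± 5.54 to 31.5 ± 1.41 CPM, with a log2 difference of -0.74 (SE 0.10) at an FDR of 0.00868. With single samples left out, Ucn3 kept an FDR under 0.05 in 3 of 6 fits (without control 1, 2 or 3), Cartpt in 2 (without control 1 or 3) and Npy in 1 (without control 1).

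Receptors for those peptides numbered 66, of which 15 were tested and 1 rose (2.02% of all genes tested). Vipr2, a receptor for vasoactive intestinal peptide that raises cAMP, was at 5.24, 6.52 and 6.26 CPM in control and at 12.1, 11.6 and 11.5 CPM after epinephrine. Its log2 fold change had a value of 0.96 (SE 0.13) and an FDR of 0.00751, and the FDR was above 0.05, up to 0.0720, without any 1 epinephrine sample. The most abundant gene of the list, Sort1, which encodes the neurotensin-binding sortilin, had a log2 difference of -0.25 (SE 0.13) at an FDR of 0.369. Without control 1, 7 of the 15 passed, 5 higher and 2 lower, where 21.6% of all genes tested passed. The median log2 fold change over all 6 samples was -0.01.

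Among 21 enzymes and helpers that mature peptide precursors, 18 were tested and 2 rose, where 2.02% of all genes tested rose, with a median log2 fold change of 0.09. Pam, which amidates the C-terminus of peptides such as cholecystokinin and adrenomedullin, rose from 290.7 ± 29.9 to 434.8 ± 19.6 CPM (SD, n = 3), with a log2 difference of 0.58 (SE 0.10) at an FDR of 0.0198. Sec11c, a catalytic subunit of the signal peptidase, rose from 52.4 ± 14.6 to 100.2 ± 2.06 CPM, with a log2 difference of 0.94 (SE 0.19) at an FDR of 0.0387. Both passed only without control 1 when single samples were left out, with FDR values of up to 0.162 and 0.203 otherwise, and 7 of the 18 passed without control 1, where 21.6% of all genes tested did. Cpe, the carboxypeptidase that trims prohormones and the most abundant gene of the list, had a log2 difference of 0.31 (SE 0.08) at an FDR of 0.10. Tpst1 and Tpst2, which sulfate the tyrosine of cholecystokinin and were named after their values were seen, differed by -0.07 and 0.18 on the log2 scale, at FDR values of 0.725 and 0.367.

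Of 33 G protein, phospholipase C, adenylyl cyclase and arrestin pathway genes beneath these receptors, 29 were tested by edgeR and 0 passed an FDR of 0.05. At an unadjusted p under 0.05 there were 5, where 17.1% of all genes tested were. DESeq2 called 2 of the 31 it tested, both lower, where 5.07% of all genes passed, and limma on FPKM called 0. Without control 1 edgeR called 6 of the 29, close to the 21.6% of all genes tested in that fit. The median log2 fold change of the 29 was -0.10, with 7 genes higher and 22 lower, where 6311 of all genes tested were higher and 6436 lower. Gnas, the stimulatory G protein and the most abundant of them, had a log2 difference of 0.05 (SE 0.12) at an FDR of 0.855.

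**Figure D4:**
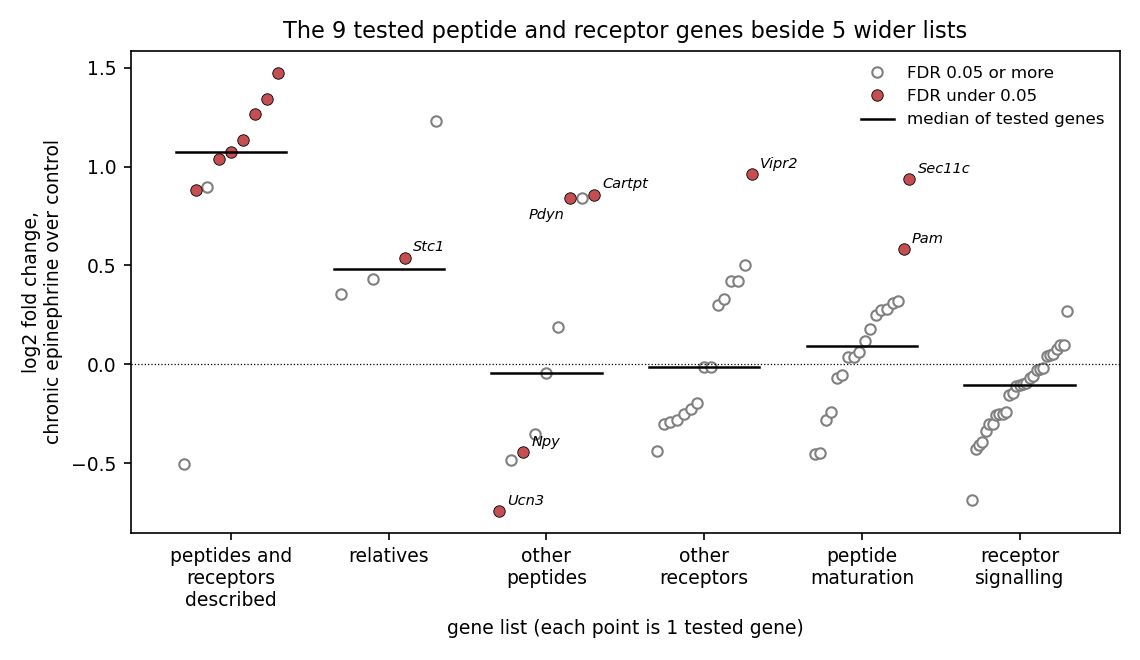
Log2 fold change of chronic epinephrine over control for every tested gene of the 6 gene groups (1 point per gene, ordered by value), with genes at an FDR under 0.05 in red and the median as a line. The medians are 1.07 for the 9 peptide and receptor genes described, which were chosen with these results known, and 0.48, -0.05, -0.01, 0.09 and -0.10 for the wider lists from left to right.

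Across the 6 samples, which share their group structure, the genes with log2 CPM most like that of Cck were Amz2, Ssr2 and Tmed3 (Pearson's r of 0.999, 0.998 and 0.998). Over 0.95 lay 312 of the 12746 other genes tested. Amz2 followed the order of Cck within a narrow range, from 72.1 CPM in control 1 to 83.2 CPM in chronic epinephrine 3 (log2 fold change 0.15, SE 0.08, FDR 0.367). Ssr2 and Tmed3 differed by 0.73 and 1.01 on the log2 scale (FDR 0.0166 and 0.00969). Those most like Adm were Ssr1, Dusp5 and Ero1l (r of 0.997, 0.996 and 0.996), with 256 genes over 0.95, and they differed by 0.31, 0.43 and 0.74 on the log2 scale (FDR 0.0786, 0.0252 and 0.00289).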

How the data were processed

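RNA-seq of 6 MIN6 samples was used (control, n = 3; chronic epinephrine, n = 3), with groups taken from the sample titles. The table deposited by the authors holds 1 expected count (not normalized between samples) and 1 FPKM value per gene in each sample, and the submitters' processing notes name GRCm38. The aligner and the counting tool are not given in the sources used here. Of the expected counts, 8.34% were not whole, and all were rounded. Totals ranged from 15017065 to 18127171 per sample, and intervals and limits cover counting error only. Genes kept by filterByExpr (12747) were scaled by TMM and compared between groups by quasi-likelihood (edgeR 4.0.16, R 4.3.3), with Benjamini-Hochberg adjustment over all of them (FDR) and a threshold of 0.05. SE is the size of the log2 fold change divided by the square root of F. The pipeline was tested on simulated data. Alternatives used DESeq2 1.42.0, limma 3.58.1 on log2 FPKM with 1 or 0.1 added, other scalings and filters, a replicate block, and left-out samples.

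The genes and lists were chosen with earlier results of these data known. Named were the 10 genes, and from each wider list those at an FDR under 0.05 and the tested gene of highest mean FPKM, and for Cck and Adm the 3 genes with the most similar log2 CPM (prior count 2). The relatives were all given. Positions are from GENCODE mouse release 21 (GRCm38), which holds 22255 of the 22298 identifiers. The result of 1 further list of cell type markers is not reported here.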

Additional observations from a re-analysis of the deposited data

How the results depend on the processing

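No alternative reversed the direction of any of the 9 tested genes. The number of them at an FDR under 0.05 was 7 with all 6 samples and 3 to 8 with a single sample left out (4, 3 and 4 without chronic epinephrine 1, 2 and 3, and 5, 6 and 8 without control 2, 3 and 1). It was 6 or 7 in the other scalings, filters, tools and the block, where 1.4% to 5.07% of all genes tested passed. The fit without controls 2 and 3 was chosen after seeing the data. It leaves 1 control and so no spread between controls, and only its log2 fold changes are given. Over all genes tested, 335 passed with all samples, 47 without chronic epinephrine 1 or 2, and 2798 without control 1. Among the 6 fits with 1 sample left out, Adm, Adm2 and Nucb2 passed in all 6 and Cckbr in 5. Stc2 passed in 3, Cck in 2, Ramp2 and Cckar each in 1, and Ramp1 in 0. With 1 added to FPKM, which shrinks low genes, the log2 fold changes of Cckbr, Stc2, Cckar and Ramp1 were 0.77, 0.78, 0.49 and -0.18. With single samples left out, calls ranged from 0 to 2 for the relatives, 1 to 5 for the other peptides and 0 to 7 for the other receptors. They ranged from 0 to 7 for peptide maturation and 0 to 6 for receptor signalling. Each count was highest without control 1, where 21.6% of all genes tested passed, against 0.364% to 1.48% with any other single sample left out. The Wald test of DESeq2 tested more genes and called 5.07% of them. It called 2 of 6 relatives, 5 of 21 other peptides and 2 of 24 other receptors. Of 20 peptide maturation genes it called 3, and of 31 signalling genes 2. The cause of these shifts was not tested.

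Replicate numbers were not treated as pairs, since same-numbered samples deviated from their group means with correlations of 0.0502, 0.0677 and -0.0488 across genes. With replicate number as a block, 6 of the 9 genes, 2 other peptides, 1 relative, 1 other receptor and 1 peptide maturation gene passed. Of all genes tested, 178 (1.4%) did. Low depth limits Ramp1, Calcrl, Calca and Gast.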
